A study of Homo sapiens and Mus musculus with 10 samples.

Results

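The 9 genes described here encode parts of the B-cell antigen receptor, kinases and an adaptor downstream of it, and proteins of the B-cell surface: CD79A, CD79B, MS4A1, CD22, BLK, BTK, BLNK, CR2 and FCER2. They were taken by name from the 19970 protein-coding genes that GENCODE release 44 places on the autosomes and X. Accessible chromatin was mapped around them by bulk short-read ATAC-seq, in which the Tn5 transposase inserts adapters into open DNA. The series is the bulk companion of a long-read single-cell ATAC-seq method. The 8 human libraries come from 4 untreated lines with 2 replicates each. GM12878 is a lymphoblastoid line of B cells transformed by Epstein-Barr virus, K562 is of erythroleukaemia origin, HEK293T is derived from embryonic kidney cells and expresses the SV40 large T antigen, and HFF1 are foreskin fibroblasts. Per the labels, GM12878 and K562 grew in RPMI-1640 with serum, HEK293T and HFF1 in DMEM with serum. Each is a single cultured line, and GM12878 is the 1 B-lineage line among them. The 2 mouse embryonic stem cell libraries were not used here.

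The B-cell antigen receptor pairs a membrane immunoglobulin with the signalling chains CD79A and CD79B. Antigen binding leads to phosphorylation of their tails by Src-family kinases such as BLK. The kinase SYK then docks there, and the adaptor BLNK brings BTK and phospholipase C gamma together. CR2, the complement receptor CD21, lowers the threshold of this signal when it binds complement-coated antigen, and CD22 binds sialic acid and dampens the signal. MS4A1 encodes CD20, the target of rituximab, and FCER2 encodes CD23, the low-affinity receptor for IgE. These genes are best known from B cells, although BTK is also active in myeloid cells and BLNK in macrophages.

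The peak lists hold between 52137 and 127359 peaks on the autosomes and X. GM12878 had 101704 and 103715 peaks, K562 78601 and 71241, HEK293T 52438 and 52137, and HFF1 127359 and 120344. Depth is not listed, but the background level recovered from each list is proportional to it. This level was 1.71 and 1.73 reads per caller window in GM12878, 2.21 and 1.97 in K562, 0.465 and 0.466 in HEK293T, and 2.43 and 2.06 in HFF1. HEK293T was thus the shallowest line, and a missing peak there says least. Of the lines' markers, GATA1 and TAL1 had start-site peaks in K562 alone, COL3A1 in HFF1 alone, and PAX2 and LHX1 in HEK293T alone, while KLF1 had none in any library. The B-cell genes PAX5 and EBF1 had start-site peaks in all 8 libraries, so these peaks did not set GM12878 apart. Both genes had more peaks within 50 kb in both GM12878 libraries than in any other, which held for 18.6% of all genes. It also held for the kidney gene PAX2, with 16 and 14 peaks in GM12878 against 10 and 8 in HEK293T. Peak names in the GM12878 lists begin differently from those in the other 6 human lists, and what that stands for is not given in the sources used here. The GM12878 names begin as those in the mouse lists do, while in K562, HEK293T and HFF1 the beginning follows the replicate number. Whatever the beginning in GM12878 marks cannot be told apart from the line among the human libraries.

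The promoters of 4 genes are shown because the start sites differ in base composition, and the peaks at them differed too. RefSeq promoters (GRCh38.p14, the 250 bases before the start, read along the gene) matched 6 of the 9 genes by symbol: CD79A, CD22, BTK, BLNK, CR2 and FCER2. The entries of CD79B, MS4A1 and BLK are missing. Capitals mark CpG dinucleotides, the sites of DNA methylation, which are dense in the promoters of broadly used genes.
CD79A, chr19:41877029-41877278, plus strand: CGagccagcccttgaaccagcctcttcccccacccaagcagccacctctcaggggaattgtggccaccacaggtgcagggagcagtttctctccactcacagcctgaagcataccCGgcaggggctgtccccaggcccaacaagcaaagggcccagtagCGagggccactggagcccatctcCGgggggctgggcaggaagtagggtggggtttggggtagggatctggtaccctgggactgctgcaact
BLNK, chr10:96271570-96271819, minus strand: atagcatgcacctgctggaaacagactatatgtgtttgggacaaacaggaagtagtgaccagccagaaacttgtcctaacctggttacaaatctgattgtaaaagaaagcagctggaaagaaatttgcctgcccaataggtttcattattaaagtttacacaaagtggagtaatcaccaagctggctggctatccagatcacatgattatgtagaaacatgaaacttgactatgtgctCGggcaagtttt
CR2, chr1:207454078-207454327, plus strand: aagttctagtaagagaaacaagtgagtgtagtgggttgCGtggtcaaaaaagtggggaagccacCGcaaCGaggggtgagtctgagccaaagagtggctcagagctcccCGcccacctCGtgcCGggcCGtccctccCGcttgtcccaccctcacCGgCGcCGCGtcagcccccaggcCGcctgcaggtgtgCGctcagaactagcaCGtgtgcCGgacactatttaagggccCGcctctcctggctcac
BTK, chrX:101390797-101391046, minus strand: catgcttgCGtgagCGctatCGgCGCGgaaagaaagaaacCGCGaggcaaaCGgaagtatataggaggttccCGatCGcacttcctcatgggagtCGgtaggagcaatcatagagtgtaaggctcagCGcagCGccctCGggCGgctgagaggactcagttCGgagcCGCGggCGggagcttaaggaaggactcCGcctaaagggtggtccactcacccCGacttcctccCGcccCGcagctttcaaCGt
The CD79A stretch holds 4 CpG and that of BLNK 1, against 17 in CR2 and 24 in BTK. FCER2 has 5 and CD22 has 7. The median over 15812 matched promoters was 17, so CR2 sits at the median, BTK above it, and the other 4 below. The BTK entry lies before an upstream start, -4605 bp from the canonical one, beside the ribosomal protein gene RPL36A.

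Peaks within 1 kb of these RefSeq starts differed between the genes. BTK and CR2, with the most CpG, had a peak in all 8 libraries. The other 4 genes did not follow the order of their CpG numbers. BLNK, with 1 CpG, had a peak in 4 libraries, those of GM12878 and HFF1. CD79A, CD22 and FCER2 had one in the 2 GM12878 libraries and in no other. Over all matched promoters, 78.0% of the 8275 with at least 17 CpG had a peak in all 8 libraries, and 0.218% had one in both GM12878 libraries alone. Among the 4374 with at most 7 CpG these shares were 10.2% and 4.50%, and 53.6% had no peak in any library. These are descriptions over promoters that share the same libraries, and no test was made.

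**Figure D1:**
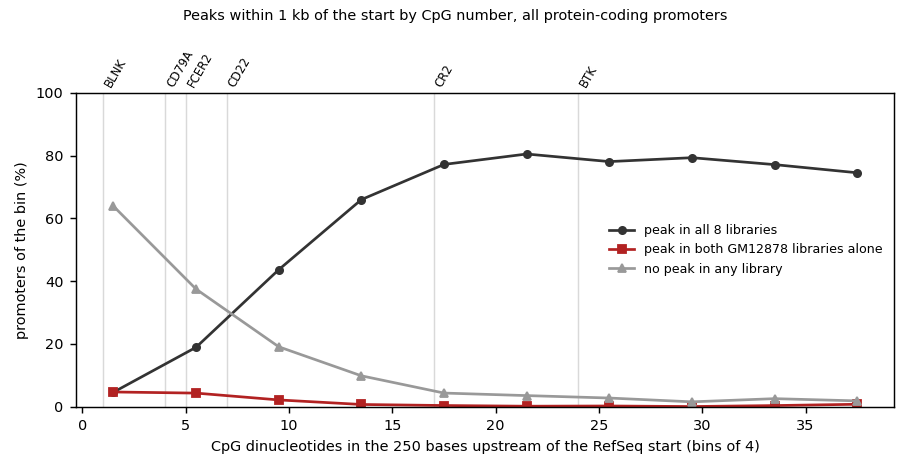
Share of matched protein-coding promoters (percent, y axis) with a peak within 1 kb of the RefSeq start, by the number of CpG dinucleotides in the 250 bases upstream (x axis, bins of 4), for peaks in all 8 libraries, in both GM12878 libraries alone, and in none. Grey vertical lines mark the 6 genes, with 4 of them at 7 CpG or fewer, where a peak in all 8 libraries was uncommon.

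All 9 genes had a peak within 1 kb of an annotated start site in both GM12878 libraries, against 71.9% of all protein-coding genes. A line is called where both its replicates have a peak. K562 was called at 4 of the 9 (CD22, BTK, CR2, FCER2; 70.4% of all genes), HEK293T at 3 (CD22, BTK, CR2; 67.8%) and HFF1 at 4 (CD22, BTK, BLNK, CR2; 76.2%). For 4 genes, CD79A, CD79B, MS4A1 and BLK, the start-site peak was in both GM12878 libraries and in no other, which held for 1.40% of all genes (280 of 19970). CD22, BTK and CR2 had one in all 8 libraries, a pattern of 59.7% of all genes. So a start-site peak in GM12878 is common over the genome, and its absence from the other lines is what few genes share.

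The 9 genes have 31 separate start windows, because several start sites are annotated for each. GM12878 was called in 15 of them, against 34.2% of the 55121 start windows of all protein-coding genes. K562 was called in 6 (31.7% of all windows), HEK293T in 4 (28.4%) and HFF1 in 4 (37.3%). GM12878 alone was called, with no peak in another library, in 7 (3.03% of all windows), and 16 windows had no peak anywhere. Both windows called in all 4 lines belong to BTK and CR2. Of the 31 windows, 8 overlap the start window of another gene, and 2 of these involve another protein-coding gene: CD79B shares its window with ENSG00000285947, and the upstream BTK window is shared with RPL36A and RPL36A-HNRNPH2. With the canonical start alone, 6 genes had a peak in both GM12878 libraries and in no other (CD79A, CD79B, MS4A1, CD22, BLK, FCER2), against 1.80% of all genes. K562 was then called at 2 (BTK, CR2; 64.7% of all genes), HEK293T at 1 (CR2; 62.9%), HFF1 at 2 (BLNK, CR2; 71.5%) and GM12878 at all 9 (66.3%).

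**Figure D2:**
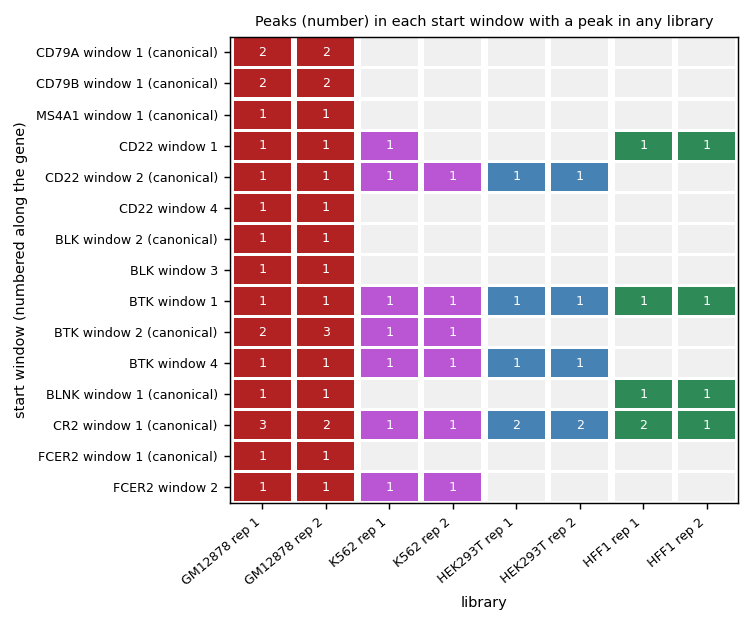
Number of peaks in each start window (rows, numbered along the gene; canonical marks the window of the canonical transcript) in the 8 human libraries (columns, 2 replicates a line); grey cells have no peak. The 15 windows with a peak in any library are drawn, every one called in GM12878, and the other 16 windows had none.

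The signalling chain CD79A (chr19:41877279-41881372, plus strand, GRCh38) had 2 peaks at its start in each GM12878 library and none in the other 6. The peak over the start has its summit at -199 and -174 bp in the replicates (negative is upstream of the canonical start), and a second lies within the gene at 829 and 822 bp. The fold of the first, the authors' own ratio to the surrounding background, was 5.28 and 5.92, and 31.1% and 22.5% of the peaks in its list ranked higher by −log10 p. The printed promoter spans these summits. It holds AGGAAGT, a core of ETS factors, starting at -55 bp, and CAGGTG, an E-box, at -181 bp, where it overlaps a reverse-strand match to TGTGGT, a RUNX core, at -185 bp. Such matches occur in 6.96%, 17.1% and 8.90% of all RefSeq promoters of this length and describe letters, not binding.

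Its partner CD79B (chr17:63928738-63932336, minus strand) also had 2 start peaks in each GM12878 library and none elsewhere. The summit at the start lies at -66 and -81 bp, with an authors' fold of 8.53 and 8.98, and 11.8% and 9.10% of the list ranked higher. A weaker peak lies inside the gene at 935 and 917 bp, with a fold of 5.12 and 4.42. Both signalling chains therefore had the same layout in GM12878: a peak just upstream of the start and a smaller one within the first kilobase.

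MS4A1 (chr11:60455846-60470752, plus strand) had a single start peak in GM12878, with summits at -131 and -178 bp. Its authors' fold was 10.3 and 10.1, and 5.28% and 6.69% of the list ranked higher, so it is among the better-ranked peaks of both lists. Neither of the other 2 MS4A1 start windows had a peak in any library. In HFF1 the whole window of the gene with 50 kb on either side held no peak.

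The inhibitory receptor CD22 (chr19:35319261-35347361, plus strand) shows why a start-site call needs its position. In GM12878 the peak sat on the canonical start, with summits at -43 and -42 bp and a fold of 6.12 and 5.70. K562 and HEK293T were called in the same window through another peak, with summits at -1329 and -1342 bp in K562 and -1333 and -1313 bp in HEK293T, within 1 kb of other annotated starts of the gene. HFF1 had its peak at the most upstream start, at -9907 and -10094 bp, and K562 replicate 1 alone also had one there, at -10048 bp. GM12878 was called in that window by a separate peak at -8845 and -8856 bp. No library outside GM12878 had a peak within 1 kb of the canonical start.

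CR2 (chr1:207453024-207489895, plus strand) was open at its start in all 4 lines. GM12878 had 3 and 2 peaks there, K562 1 and 1, HEK293T 2 and 2, and HFF1 2 and 1. The summits next to the start lay at -48 and -66 bp in GM12878, -40 bp in K562 replicate 1, -72 and -71 bp in HEK293T and -102 bp in HFF1 replicate 1. In K562 replicate 2 and HFF1 replicate 2 the nearest summit lay at 392 and 509 bp. A further peak at 1023 and 1031 bp was listed in both GM12878 libraries and in none of the other 6.

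FCER2 (chr19:7688758-7702146, minus strand) had 1 peak at its canonical start in each GM12878 library, with summits at 23 and -133 bp and a fold of 6.06 and 5.63. In these lists 15.5% and 18.6% of peaks ranked higher. An internal start window was called in GM12878, with summits at 2131 and 2125 bp, and in K562, at 2130 and 2116 bp. That internal peak was weak in GM12878, with a fold of 2.75 and 2.50, and 83.8% and 92.0% of the list ranked higher.

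BTK (chrX:101349338-101390796, minus strand), the Tec-family kinase of the pathway, had 3 start windows with peaks, and they differed between lines. The upstream window, shared with RPL36A, was called in all 4 lines, with every summit between -4725 and -4696 bp. The canonical start was called in GM12878, with summits at -57 and -52 bp, and in K562, at -153 and -52 bp, and in no HEK293T or HFF1 library. The fold there was 7.20 and 7.23 in GM12878 and 6.15 and 6.01 in K562, each relative to its own library. GM12878 also had smaller peaks at 262 and 266 bp, and replicate 2 one more at 626 bp. A start window deep in the gene, with summits from 28820 to 28845 bp, was called in GM12878, K562 and HEK293T.

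BLNK (chr10:96189171-96271587, minus strand) was called at its canonical start in GM12878 and in HFF1. The summits lay at -12 and -24 bp in GM12878 and at -27 and -21 bp in HFF1, and no K562 or HEK293T library had a peak there. The authors' fold was 7.34 and 7.40 in GM12878 and 7.15 and 7.76 in HFF1. In GM12878 19.5% and 20.0% of the list ranked higher, in HFF1 46.5% and 44.3%, lists of different length and depth.

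Beyond the start sites, peaks were counted in each gene body with 50 kb on either side. GM12878 had 135 and 148 peaks in the 9 windows together, K562 66 and 66, HEK293T 37 and 32, and HFF1 64 and 61. The means were 141.5 ± 9.19 in GM12878, 66 in both K562 libraries, 34.5 ± 3.54 in HEK293T and 62.5 ± 2.12 in HFF1 (SD, n = 2). HFF1 had the longest lists but fewer peaks here than GM12878. Per gene, GM12878 averaged 15.0 and 16.4 peaks against 9.74 and 9.91 over all protein-coding genes, while HFF1 averaged 7.11 and 6.78 against 11.2 and 10.7. K562 averaged 7.33 in both libraries against 8.29 and 7.70, and HEK293T 4.11 and 3.56 against 5.12 and 5.13. In the 3 other lines the average over the 9 genes thus lay below the mean of all genes. Single genes lay above it, such as BLK with 20 and 21 peaks in HFF1 and CD79A with 10 and 15 in K562.

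In 7 of the 9 genes both GM12878 libraries had more peaks in this window than any other library, which held for 18.6% of all protein-coding genes. The exceptions were CD79A and BTK. Within the gene bodies alone it held for 8 of 9, all but CR2, against 13.2% of all genes. BLNK had the widest gap, with 15 and 16 peaks in GM12878, 3 and 1 in K562, 2 and 2 in HEK293T and 3 and 4 in HFF1. Only 0.401% of all genes had a larger gap between the lower GM12878 library and the highest other one. CD79B, at 19 and 19 peaks against 5 to 9 in the other libraries, and FCER2, at 17 and 22 against 2 to 7, followed, with 0.601% of genes above them.

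CD22 had 18 and 18 peaks in GM12878, 11 and 13 in K562, 3 and 2 in HEK293T and 4 and 3 in HFF1. CR2 had 13 and 13 in GM12878 against 3 to 7 in the others. MS4A1 had 7 and 8 in GM12878, 3 and 2 in K562, 1 and 1 in HEK293T and none in HFF1. The libraries of GM12878 did not overlap those of another line in these 3 genes. CD79A had 14 and 16 in GM12878 but 10 and 15 in K562, so K562 replicate 2 lay between the GM12878 libraries, and HEK293T had 4 and 4 and HFF1 7 and 6. BTK had 9 and 11 in GM12878 and 9 and 8 in HFF1, and 7 in each of the K562 and HEK293T libraries. Those 2 windows hold the starts of other genes with peaks in many lines, RPS19 and ARHGEF1 beside CD79A, and TIMM8A, GLA, HNRNPH2 and RPL36A beside BTK. The windows of CD22 and CD79B also hold such starts, of USF2 and GH1. So do those of BLK (FAM167A), FCER2 (TRAPPC5) and CR2 (CR1). The part of these starts in the counts was not tested.

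**Figure D3:**
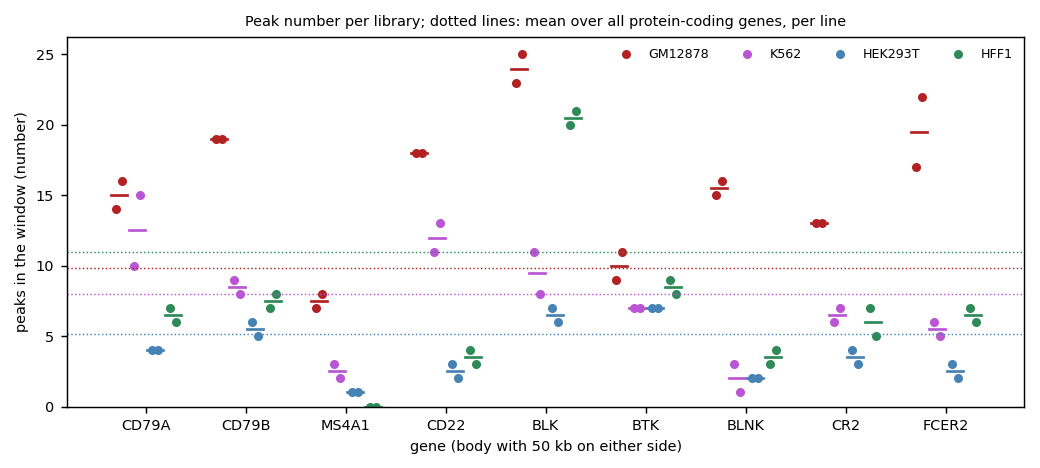
Peaks in each gene body with 50 kb on either side (number, y axis) per library, coloured by line; short bars are line means of 2 libraries and dotted lines the means over all protein-coding genes. GM12878 is highest for all 9 genes by line mean, with K562 close in CD79A and HFF1 close in BLK and BTK.

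Between single lines, 2 libraries against 2 cannot reach p = 0.05 in an exact permutation test, so the 4 lines were tested together. The share of variance of log2(peak number + 1) between lines was compared over every way of pairing the 8 libraries (exact permutation test, one-sided, Benjamini-Hochberg over 19717 genes with a peak), which cannot go below p = 0.00952. No gene passed an adjusted p of 0.05, members included, although 11779 genes had an unadjusted p under 0.05. The smallest adjusted p over all genes was 0.0531, a value tied over many genes. Of the 9 genes, 7 had it, which does not set them apart, while BTK stood at 0.0871 and BLNK at 0.110. Of these pairings, 15 keep the libraries of 1 given line together, so a gene that differs in GM12878 alone cannot reach the smallest p, however large the gap. Where nothing says that replicates came from separate cultures, these p-values measure the spread between the libraries, which may be technical. The median log2 ratio of GM12878 to the other lines, on (mean peak number + 1), was 1.29 over the 9 genes and 0.21 over all protein-coding genes. It ranged from 0.37 in BTK to 2.24 in BLNK.

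**Figure D4:**
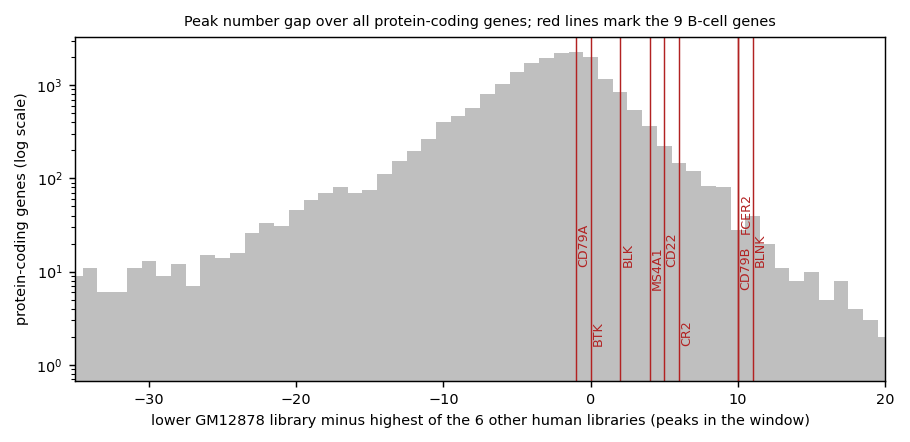
Histogram of all protein-coding genes (number, log y axis) by the lower GM12878 library minus the highest of the 6 other human libraries in peaks per window (x axis, the extreme tails not drawn), with red lines at the 9 genes. Of these, 7 lie to the right of 0, CD79B and FCER2 both at 10 and BLNK at 11, with BTK at 0 and CD79A at -1.

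Depth differed between the lines, so the counts were also taken in ways that bring the lists closer together. In the first, recovered pileups were scaled to the HEK293T background level and peaks kept that still passed the HEK293T threshold. This matched the background level and not the list length, since 78116 and 79244 peaks remained in GM12878, the longest lists, against 45534 and 45518 in K562, 52438 and 52137 in HEK293T and 74505 and 77117 in HFF1. All 9 genes then had more peaks in both GM12878 libraries than in any other, against 29.6% of all genes. CD79A had 13 and 12 against 4 or 5 in each of the others, and BTK 8 and 10 against 4 to 7. The same 4 genes kept a start-site peak in both GM12878 libraries and in no other, CD79A, CD79B, MS4A1 and BLK, against 1.89% of all genes. In the second, each list was limited to its 50000 best peaks. Then 6 of the 9 genes had more window peaks in both GM12878 libraries than in any other, as did 2391 of all 19970. CD22 and CR2 no longer did, BTK still did not, and CD79A now did.

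Peaks of the 8 libraries were merged by overlap into regions. The 9 windows held 204 of them, and GM12878 was called in 127, K562 in 53, HEK293T in 27 and HFF1 in 50. In GM12878 and no other library there were 74, in K562 and no other 10, in HFF1 13 and in HEK293T 0. No genome-wide share is given for the counts of K562, HFF1 and HEK293T, which are not read as particular to these genes. The 74 are 58.3% of the regions called in GM12878 here, against 40.6% of the 88175 called in GM12878 over the genome. By place, 13 lay at a start site, 22 in a gene body and 39 in the flanks, and 7 lay at the start of another protein-coding gene. CD22 had 14 of them, FCER2 12, BLK 11, BLNK 10, CD79B 9, CR2 7, MS4A1 5, CD79A 4 and BTK 2. The replicates of GM12878 shared 83.0% of the regions found in either, those of K562 72.6%, HEK293T 77.1% and HFF1 72.5%.

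**Figure D5:**
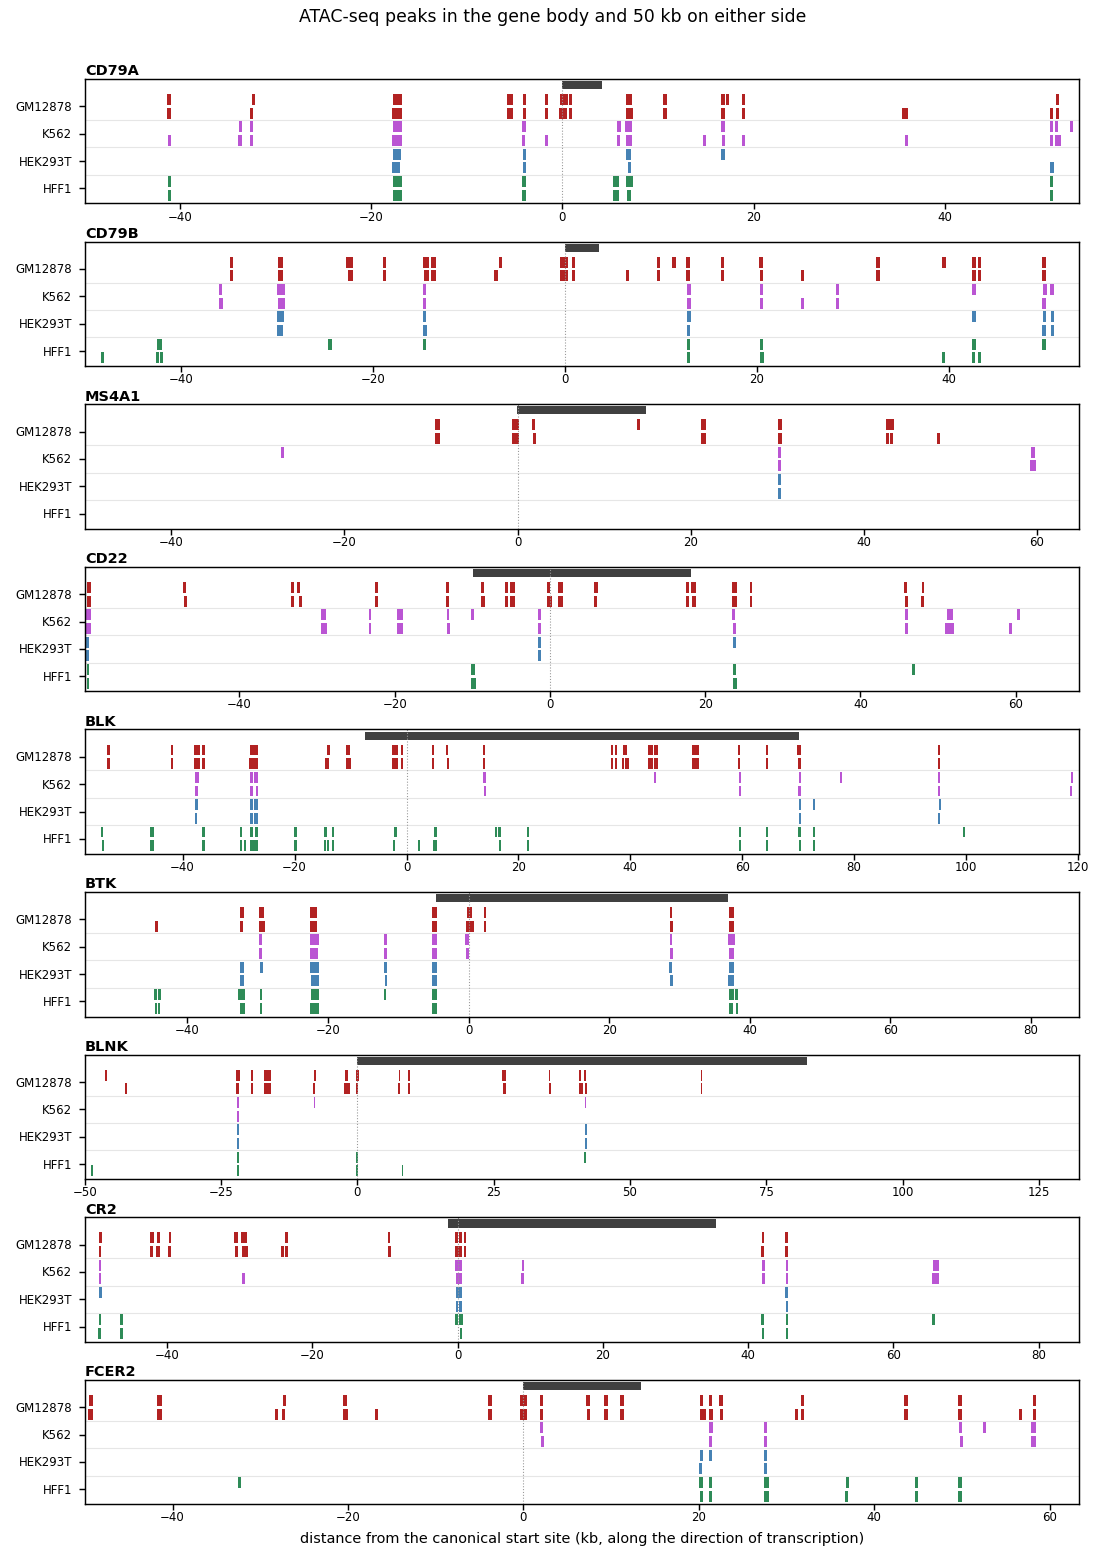
Peaks of each library (coloured bars, 2 rows a line) along the 9 genes with 50 kb on either side; the x axis is the distance in kb from the canonical start along the direction of transcription, and the dark bar is the gene body. Clusters of GM12878 peaks without counterparts stand upstream of CR2, around BLNK and across CD22 and FCER2, while the peaks beside BTK are mostly shared.

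The sequences of 2 distal regions are shown because these were the best ranked of those called in GM12878 alone, 1 in a gene body and 1 in a flank. Capitals mark CACCTG, the reverse complement of the E-box CAGGTG. The letters reach 100 bases to either side of the summit in replicate 1, on the plus strand of GRCh38.
BLNK body, chr10:96244506-96244706: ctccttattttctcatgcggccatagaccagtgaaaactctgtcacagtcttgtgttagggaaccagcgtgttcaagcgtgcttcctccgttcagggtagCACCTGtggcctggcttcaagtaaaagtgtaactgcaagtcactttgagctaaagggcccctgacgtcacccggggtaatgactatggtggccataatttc
FCER2 flank, chr19:7658455-7658655: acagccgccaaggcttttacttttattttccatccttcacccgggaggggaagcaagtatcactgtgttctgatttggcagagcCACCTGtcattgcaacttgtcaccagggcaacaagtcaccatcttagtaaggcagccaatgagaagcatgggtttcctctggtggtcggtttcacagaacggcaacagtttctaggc
The BLNK region (chr10:96244291-96244974) lies 26937 bp inside the gene, with an authors' fold of 15.3 and 15.0, and 5.25% and 6.21% of the list ranked higher. It had the highest fold of the 74 regions. The FCER2 region (chr19:7658223-7658720) lies 43660 bp downstream of the start and beyond the gene, with a fold of 14.6 and 13.1. On both strands, the E-box CAGGTG occurred in this summit window in 26 of the 74 regions (35.1%), against 19.0% of all 35808 regions called in GM12878 alone, 18.7% of GM12878 replicate 1 peaks and 17.1% of promoters. CCCNNGGG, an EBF core, occurred in 14.9% of the 74 against 7.48% of all such regions, and the GC box GGGCGG in 8.11% against 4.47%. The RUNX core TGTGGT occurred in 27.0% against 24.8%, the octamer ATGCAAAT in 5.41% against 4.67%, and the NF-kappaB core GGANTTTCC in 2.70% against 2.33%. The ETS core AGGAAGT, at 12.2% against 13.7%, the IRF core GAANNGAAA, at 13.5% against 16.7%, and TATAAA, at 6.76% against 10.4%, were less frequent in the 74. These are counts of letters and were not tested.

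Other regions called in GM12878 alone stood at some distance from the starts. Beside FCER2, 1 lay upstream at -41474 bp with a fold of 11.7 and 12.2, and another at -49339 bp. Beside MS4A1, 1 lay at -9283 bp with a fold of 11.4 and 10.4 and another at 43001 bp with 12.4 and 11.6. CR2 had 6 upstream, from -42101 to -9411 bp, the best ranked at -39613 bp with a fold of 9.15 and 9.06. In CD22 the body region at 1374 bp had a fold of 7.04 and 6.83, higher than the peak on the canonical start in both libraries. BTK had a single one away from its starts, at 2290 bp in the first part of the gene, with a fold of 8.46 and 7.18. The best-ranked flanking regions of CD79A, CD79B, CD22, BTK and BLNK were, in contrast, called in all 4 lines, and those of the first 4 lie at the starts of RPS19, GH1, USF2, and GLA with HNRNPH2.

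BLK (chr8:11486894-11564599, plus strand), a Src-family kinase, had peaks at 2 of its 6 start windows, in GM12878 and in no other library. The one near the canonical start was weak, with summits at -767 and -777 bp, an authors' fold of 3.03 and 2.93, and 76.3% and 80.1% of the list ranked higher. The other, at an internal start with summits at 51579 and 51532 bp, was strong, with a fold of 11.5 and 11.8 and 5.74% and 5.01% of the list ranked higher. A stronger region centred at -2006 bp, outside the 1 kb start window, was called in GM12878 and in HFF1. Its fold was 8.38 and 7.96 in GM12878 and 10.2 and 10.1 in HFF1, each relative to its own library. With start windows of 2 kb, BLK no longer had a start-site peak in GM12878 alone. The BLK gene body with 50 kb on either side held 23 and 25 peaks in GM12878, 20 and 21 in HFF1, 11 and 8 in K562 and 7 and 6 in HEK293T. HFF1 thus came within 2 peaks of the lower GM12878 library. Although these numbers were close, 11 regions were called in GM12878 and no other library and 7 in HFF1 and no other.

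Among 26 other genes of the receptor pathway, such as SYK, LYN and PLCG2, 24 had a start-site peak in both GM12878 libraries (71.9% of all genes), 22 in K562 (70.4%), 17 in HEK293T (67.8%) and 17 in HFF1 (76.2%). In 14 the peak was in all 8 libraries (59.7% of all genes), and FCGR2B and LILRB3 had none anywhere. INPP5D, the lipid phosphatase SHIP that counters receptor signalling, was the 1 gene with a start-site peak in both GM12878 libraries and no other (1.40% of all genes). Its window held 28 and 27 peaks in GM12878 and 4 to 16 in the others. In 16 of the 26 both GM12878 libraries had more window peaks than any other (18.6% of all genes), for example SYK with 19 and 20 against 3 to 11. The median log2 ratio of this list was 0.75.

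Among 24 other genes listed with the B-cell surface, 22 had a start-site peak in GM12878 (71.9% of all genes), 12 in K562 (70.4%), 5 in HEK293T (67.8%) and 10 in HFF1 (76.2%). The peak was in both GM12878 libraries and no other in 7, against 1.40% of all genes. These were CD27 and TNFRSF13B of the TNF receptor family, the costimulator CD86 and the Fc receptor-like FCRL3 and FCRL5. The others were the DNA sensor TLR9, which acts in endosomes and not at the surface, and the sialic acid receptor SIGLEC10. CD86 had 27 and 29 window peaks in GM12878 against 1 to 3 in the others. TLR9, at 11 and 11 against 13 and 14 in HFF1, and SIGLEC10, at 11 and 11 as in both K562 libraries, did not have more window peaks in GM12878. CD180 and FCRL1 had no start-site peak in any library. In 17 of the 24 the window count was higher in both GM12878 libraries than in any other (18.6% of all genes), and the median log2 ratio was 1.08. Windows of genes that lie close together share peaks, which these counts do not take into account.

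Markers of other blood cells were not absent from GM12878. Of 4 T-cell genes, CD3G had a start-site peak in both GM12878 libraries and no other (1.40% of all genes). CD3D had one in GM12878 and K562, CD247 one in all 8 libraries (59.7% of all genes) and CD3E none. In 3 of the 4, CD3D, CD3E and CD3G, both GM12878 libraries had more window peaks than any other (18.6% of all genes). Genes that lie close together count the same window peaks, so these 3 are not taken as separate observations. Of 3 monocyte genes, CD14 and CSF1R had a start-site peak in GM12878 (71.9% of all genes) and HFF1 (76.2%), and LYZ in K562 (70.4%). LYZ had more window peaks in both GM12878 libraries, 6 and 7, than in any other (18.6% of all genes). The part of other cells in the counts of the 9 genes was not tested.

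Of 268 genes with a start-site peak in both GM12878 libraries and no other, over 100 kb from the 9 genes, the 5 whose window counts lay closest to their mean profile were KCNMB1, SASH3, ENSG00000289025, SCIMP and FCRL5. The distance over the 8 libraries in log2(peak number + 1) ranged from 0.684 for KCNMB1 to 0.928 for FCRL5. KCNMB1 had 12 and 12 peaks in GM12878, 5 and 5 in K562, 4 and 4 in HEK293T and 6 and 5 in HFF1.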

How the data were processed

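Bulk ATAC-seq peak lists of 8 human libraries (4 lines, 2 replicates each) were used, grouped by their labels. Per the submitters' processing notes, the tools were cutadapt 3.2, Bowtie2 2.4.2, Picard and MACS2 2.2.7.1, and the builds hg38 and mm10. The authors deposited 1 narrowPeak list per library, not pooled, with a fold (a linear ratio over the local background), −log10 p and −log10 q values, and a score. No peak passed the end of a GRCh38 chromosome. Peaks on the autosomes and X were set against GENCODE 44 start sites (1 kb on either side, any overlap) and gene bodies with 50 kb on either side. A call needed both replicates. Depth was recovered by solving each peak's fold and −log10 p for a pileup, which succeeded for 100% of peaks. No counting interval was computed, since reads amplified by PCR and lacking molecular identifiers are not independent.

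All genes named were fixed by rule: the 9 members, list genes with a start-site peak in GM12878 alone, the 5 genes closest in profile, and the best-ranked regions. List genes named beyond this rule were chosen after their values were seen, as were the distal regions described beyond the best-ranked ones and the flanking genes. The members and lists were chosen with earlier results of these data known. The line test was run on simulated data first. Motif letters were searched on both strands in RefSeq promoters and in summit windows. Python 3.11.15, numpy 2.4.6, pandas 2.3.3 and scipy 1.17.1 were used. Alternatives were other window sizes, canonical starts, summits, stricter thresholds, equal list length, a matched background level, a replicate block and each library left out. Some list genes are not reported here by name.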

Additional observations from a re-analysis of the deposited data

How the results depend on the processing

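Of the counts over the 9 genes, 79 values under alternative settings stayed within 1.5 times the reported one and 3 moved. With start windows of 2 kb, 2 genes rather than 4 (CD79B and MS4A1) had a start-site peak in GM12878 alone, against 1.44% of all genes. With the 50000 best peaks per library, 33 rather than 74 regions were called in GM12878 alone. With windows of 100 kb, 6 genes rather than 0 passed the line test (CD79B, MS4A1, CD22, BLK, CR2, FCER2), as did 64.9% of all genes (12888 rather than 0), so that count says little of these genes; the cause was not tested. Without each replicate in turn, 9 genes had a GM12878 start-site peak (71.9% to 73.4% of all genes) and 4 had it there alone (1.44% to 1.69%). More window peaks in GM12878 were found for 7 to 9 (18.8% to 23.7% of all genes), and 0 passed the line test. In GM12878 alone there were 74 to 90 regions (15.1% to 19.1% of all regions). CD79A joined the genes with more window peaks without K562 replicate 2, BTK without HFF1 replicate 1, and both without GM12878 replicate 1. Leaving out both HEK293T libraries, chosen after seeing the data, gave 9, 4, 7 and 74 (71.9%, 1.62% and 19.5% of all genes, and 16.4% of all regions). With the replicate block, which allows 24 pairings and a smallest p of 0.0417, 0 genes passed. Same-numbered libraries did not deviate together in peak number (r from -0.0118 to 0.0145 over genes). Being taken on small whole numbers of peaks, these correlations cannot exclude a batch shared by same-numbered libraries. In K562, HEK293T and HFF1 the peak names of same-numbered libraries also begin alike. A missing peak in HEK293T, the shallowest line, was not detected at this depth, which does not show closed chromatin.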

Other observations

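Some regions in the windows of the 9 genes were called in a single line other than GM12878. K562 had 10 of them, 4 beside CD22, of which the best by the authors' fold lay at 51452 bp from its start (chr19:35380209-35381069, fold 10.9 and 11.5) and another at -29130 bp (fold 8.78 and 9.08). MS4A1, whose start had no peak in K562, had a K562 region at 59552 bp (chr11:60515083-60515715, fold 11.0 and 11.9), at the start of its neighbour MS4A13. CR2 had 1 inside the gene at 8995 bp (fold 4.25 and 4.01).

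HFF1 had 13 such regions and 7 of them lay beside or in BLK. The one with the highest fold, 9.81 and 10.7, lay at -19822 bp, at a start of FAM167A, and 2 were inside BLK at 16647 and 21722 bp. HEK293T, the shallowest line, had 0. These regions were named after their values were seen. Their counts per line are given without a share over all regions and are not read as particular to these genes.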
